A study of Mus musculus with 48 samples.

Results

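In newborn mouse liver at postnatal day 0.5 (P0.5), the transcription factors C/EBPα and HNF4α were mapped by chromatin immunoprecipitation with sequencing (ChIP-seq), and their peaks were sorted here by whether the other factor had a peak at the same place. A C/EBPα region is an interval made by merging the peaks of both replicates and holding at least 1 peak of each. HNF4α is represented by a single list of 21262 peaks, because the lists deposited for its replicates are identical. A region that holds both factors, with any overlap of at least 1 bp, is called shared, and the others are C/EBPα alone or HNF4α alone. The 3 classes hold 98864 regions: 14922 shared, 77636 C/EBPα alone and 6306 HNF4α alone. For scale, the 19 distinct C/EBPα and HNF4α peak lists of the series merge into 245541 regions.

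All livers came from F1 mice of C57Bl6 and CBA, which the labels describe as not treated. The labels name a standard and a high fat diet without saying which samples had which, so a difference in diet between the groups cannot be told apart from the group. The ChIP samples are wild type, and each factor has 2 replicates at each of 5 stages: e15.5 and e18.5 in the embryo, then P0.5, P14 and P60. HNF4α antibodies of a pair of suppliers are listed together for each HNF4α sample, and 1 C/EBPα antibody for each C/EBPα sample. RNA sequencing covers 3 wild-type livers (WT), 3 livers with C/EBPα lox/lox and Alfp-Cre (the C/EBPα knockout) and 2 livers with HNF4α lox/lox and Alfp-Cre (the HNF4α knockout). Alfp-Cre, as its name is used in the field, drives Cre recombinase from albumin and α-fetoprotein regulatory sequence in cells of the hepatocyte and bile duct lineage, so other liver cells keep the gene. The sources conflict on the age of the RNA samples: the sample labels give 60 days after birth, whereas the design text gives E18.5. The binding and RNA data are therefore not of one known stage. The input and polymerase II libraries were not analysed here. The labels do not say whether replicates are separate animals, so p-values measure the spread between these libraries.

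C/EBPα, encoded by Cebpa, is a basic leucine zipper protein that binds DNA as a dimer and is known for its part in hepatocyte and adipocyte metabolism. HNF4α, encoded by Hnf4a, is a nuclear receptor that binds direct repeats as a homodimer and is required for the hepatocyte gene programme. Both act at the promoters and distal enhancers of genes for plasma proteins, xenobiotic enzymes and intermediary metabolism, and hepatocyte enhancers often hold sites for several such factors.

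The deposited peaks are positions on mouse build mm9, for which no genome sequence was used here, so sequence is shown from RefSeq promoters (build GRCm38.p6), matched by gene symbol. The 250 bases before the start are given 5′ to 3′ on the gene's strand for 3 liver genes, 1 for each class of region over the promoter: Fga (fibrinogen α chain, shared; chr3:83025903-83026152, + strand), Apob (the main protein of very low density lipoprotein, C/EBPα alone; chr12:7977427-7977676, + strand) and Abcg5 (a sterol transporter subunit, HNF4α alone; chr17:84683012-84683261, - strand). Capitals mark matches to TTGCNNAA, a form of the C/EBP site, and to CAAAGNNCA, a form of the HNF4 site, on either strand.
Fga: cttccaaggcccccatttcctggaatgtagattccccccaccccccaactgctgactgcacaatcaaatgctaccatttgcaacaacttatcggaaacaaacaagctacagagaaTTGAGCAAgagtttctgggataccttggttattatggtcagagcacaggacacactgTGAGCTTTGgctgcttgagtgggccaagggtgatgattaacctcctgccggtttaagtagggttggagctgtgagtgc
Apob: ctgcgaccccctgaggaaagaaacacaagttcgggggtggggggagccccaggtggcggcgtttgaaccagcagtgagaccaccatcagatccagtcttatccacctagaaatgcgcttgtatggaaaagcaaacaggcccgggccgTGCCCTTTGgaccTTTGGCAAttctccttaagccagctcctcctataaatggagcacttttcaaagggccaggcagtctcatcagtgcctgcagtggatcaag
Abcg5: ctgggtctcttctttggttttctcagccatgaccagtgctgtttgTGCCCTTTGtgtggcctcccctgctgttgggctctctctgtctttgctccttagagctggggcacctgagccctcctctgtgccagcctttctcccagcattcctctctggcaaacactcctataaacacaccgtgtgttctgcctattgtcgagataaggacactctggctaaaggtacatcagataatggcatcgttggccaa
The Fga promoter held TTGAGCAA, which begins 135 bases before the start, and TGAGCTTTG, which begins 78 bases before it. The Apob promoter held TTTGGCAA at 90 bases and, although no HNF4α peak lay over it at P0.5, TGCCCTTTG, a match to the HNF4 pattern, a few bases upstream of that. The Abcg5 promoter held the same TGCCCTTTG at 205 bases and no match to the C/EBP pattern in these 250 bases. Each of these matches lies on the strand opposite to the one printed. These genes were picked for holding the match of each factor of their class, so they show what a match looks like and not how often one occurs.

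Over all promoters the letters followed the class only in part. Of 17843 genes matched to a RefSeq promoter, 13514 protein-coding genes with a single promoter of 300 bases (250 before to 50 after the start) were searched on both strands. TTGCNNAA was present in 10.1% of them. The share was 10.98% of the 1384 promoters reached by a shared region, 14.0% of the 2552 reached by C/EBPα alone, 5.91% of the 592 reached by HNF4α alone and 9.10% of the 8979 reached by none. CAAAGNNCA was present in 5.88% of all promoters, 8.53% of shared, 5.60% of C/EBPα alone, 6.25% of HNF4α alone and 5.54% of those with no region. The classes also differ in base composition, with a median GC content of 61.0%, 58.7%, 64.3% and 54.3% in the same order. In 4 groups of like size from low to high GC content, holding 136, 298, 465 and 485 shared promoters, TTGCNNAA was in 28.7%, 18.5%, 7.96% and 4.33% of the shared promoters and in 16.3%, 12.8%, 7.64% and 3.58% of all promoters. CAAAGNNCA was in 29.4%, 10.4%, 7.74% and 2.27% of the shared and in 8.32%, 7.37%, 5.48% and 2.37% of all. The shares of shared and of all promoters were thus furthest apart at low GC content and close at high GC content, where most shared promoters lie. The stricter TTGCGCAA, a subset of the first pattern, was in 0.244% of all promoters, 0.506% of shared, 0.823% of C/EBPα alone and 0 of 592 HNF4α alone promoters. The stricter CAAAGTCCA, a subset of the second, was in 0.488% of all, 1.23% of shared, 0.392% of C/EBPα alone and 1.69% of HNF4α alone promoters.

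Most HNF4α peaks lay over a C/EBPα region, whereas most C/EBPα regions had no HNF4α peak. Of the 21262 HNF4α peaks, 14956 (70.3%; 95% Wilson interval 69.7% to 71.0%, counting error only) overlapped a C/EBPα region. Of the 94619 C/EBPα regions, 16983 (17.9%; 17.7% to 18.2%) overlapped an HNF4α peak. The lists differ in length and in interval width, which bears on both shares. The C/EBPα lists hold 107438 and 121624 peaks of median width 351 and 337 bp, while the HNF4α peaks have a median width of 1009 bp. C/EBPα regions cover 43.5 Mb, or 1.65% of the span of the chromosomes in the lists, and HNF4α peaks cover 23.2 Mb (0.878%). With the C/EBPα regions limited to as many as there are HNF4α peaks, taking the widest, the shares were 36.4% of HNF4α peaks and 37.7% of C/EBPα regions. Lists of equal length with mostly one-to-one overlaps must give like shares in the 2 directions, so only their level is informative.

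Wider intervals overlapped more often in both lists. With HNF4α peaks in 4 groups of like size from the narrowest to the widest, 58.7%, 66.0%, 74.8% and 82.1% lay over a C/EBPα region. Across 4 such groups of C/EBPα regions, 6.40%, 11.2%, 17.8% and 36.6% lay under an HNF4α peak. The median C/EBPα region was 521 bp wide where shared and 406 bp where alone, and the median HNF4α peak was 1030 bp where shared and 962 bp where alone. The deposited score is 0 for every peak, so width is the only measure of a peak in these lists, and a wider interval also has more room to overlap. The plot of the classes shows the counts and the change with width.

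**Figure D1:**
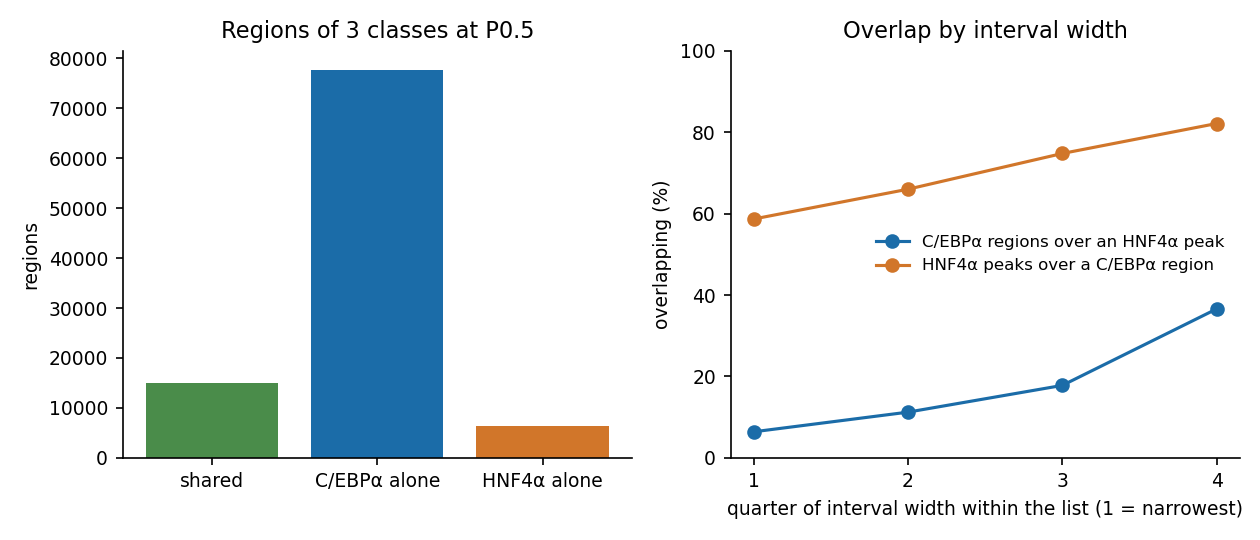
Left, number of regions in each class at P0.5 (14922 shared, 77636 C/EBPα alone, 6306 HNF4α alone). Right, percent of HNF4α peaks over a C/EBPα region (58.7% to 82.1%) and of C/EBPα regions over an HNF4α peak (6.40% to 36.6%) in 4 groups of like size by interval width; both shares are higher in wider groups.

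Where the factors overlapped, their interval centres lay close together, though overlap itself bounds the distance by the interval widths. No reference distance was computed. In 13057 HNF4α peaks that held exactly 1 C/EBPα region, the centres were a median of 74.5 bp apart. The distance was at most 50 bp in 36.4% of pairs, at most 100 bp in 60.9% and at most 250 bp in 85.4%. A further 1755 HNF4α peaks held 2 C/EBPα regions and 144 held 3 or more, up to 8. When each interval was replaced by 200 bp around its centre, 55.1% of HNF4α peaks and 12.4% of C/EBPα regions still overlapped.

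**Figure D2:**
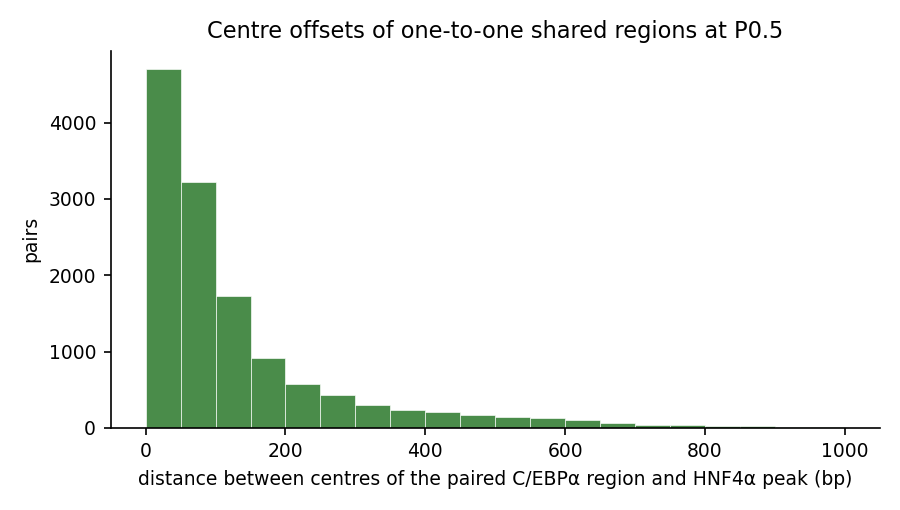
Number of one-to-one shared pairs (y) by the distance between the centres of the C/EBPα region and the HNF4α peak in bp (x, bins of 50 bp). The median of the 13057 pairs is 74.5 bp; 11 pairs lie past 1000 bp and are not drawn.

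Regions of a single factor were not all far from the other factor. Of the 6306 HNF4α alone regions, 1706 (27.1%) lay over a C/EBPα peak found in 1 replicate, and 4600 lay over no C/EBPα peak of either. Their median distance to the nearest C/EBPα region was 3547 bp, and 58.5% had one within 5 kb. C/EBPα alone regions were a median of 23614 bp from the nearest HNF4α peak, and 20.9% had one within 5 kb. The C/EBPα regions outnumber the HNF4α peaks, which shortens the first distance.

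Regions holding HNF4α lay near gene starts more often than C/EBPα alone regions. The centre was within 1 kb of a protein-coding start for 2118 (14.2%) shared regions, 6066 (7.81%) C/EBPα alone regions and 1060 (16.8%) HNF4α alone regions. The median distance to such a start was 17668 bp, 26318 bp and 15837 bp in the same order, and 56.0%, 53.1% and 58.3% of centres were inside a gene body. The share of HNF4α peaks that were shared was 66.6% within 1 kb of a start and between 69.8% and 71.4% in each farther distance bin. The share of C/EBPα regions that were shared was 25.9% within 1 kb and 11.8% beyond 100 kb.

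The widest intervals recurred across the lists of both factors. Of 31 regions over 5 kb, 8 had a peak in all 19 lists and each had one in at least 3. The widest shared region, chr9:2999925-3038815 on mm9 (38891 bp), overlaps Gm10106 and had a peak in 18 lists.

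Shared regions held each factor at the other stages more often than the other classes did, with no test over replicates of these shares. Of the shared regions, 28.2% had a both-replicate C/EBPα region at e15.5, 86.7% at e18.5, 72.4% at P14 and 67.9% at P60. HNF4α was present at 82.6%, 38.02%, 78.1% and 82.6% of them at the same stages. The both-replicate C/EBPα list at e15.5 holds 10419 regions and that of HNF4α at e18.5 holds 18359, the shortest such list of each factor. The single HNF4α lists at e18.5 are longer, with 53278 and 41199 peaks. Of the shared regions, 55.5% and 47.0% had a peak in these single lists. Both factors together were found at 25.7%, 34.3%, 61.3% and 62.9% of shared regions. At e15.5, 56.9% of the regions shared at P0.5 had HNF4α without C/EBPα and 2.49% had C/EBPα without HNF4α. At e18.5 the order was the other way round, with 52.4% C/EBPα without HNF4α and 3.70% HNF4α without C/EBPα.

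Regions of 1 factor at P0.5 held the other factor in at most 13.4% of cases at any 1 of the other stages. C/EBPα alone regions held an HNF4α region in 8.64%, 1.00%, 6.18% and 13.4% of cases at e15.5, e18.5, P14 and P60, and 19.1% held one at any of these stages. They kept C/EBPα itself in 7.52%, 58.4%, 27.6% and 30.6%. HNF4α alone regions held C/EBPα in 0.254%, 7.82%, 8.74% and 10.8%, and 20.1% held it at any of the 4 stages. They kept HNF4α in 72.7%, 23.2%, 62.7% and 65.5%, and 90.9% at any of them, against 64.5% of C/EBPα alone regions with C/EBPα at any of them. HNF4α peaks at P0.5 are wide, and wide intervals overlap other lists more, so the levels of the classes are not matched for width. The plot of binding by stage also gives each replicate's list on its own.

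**Figure D3:**
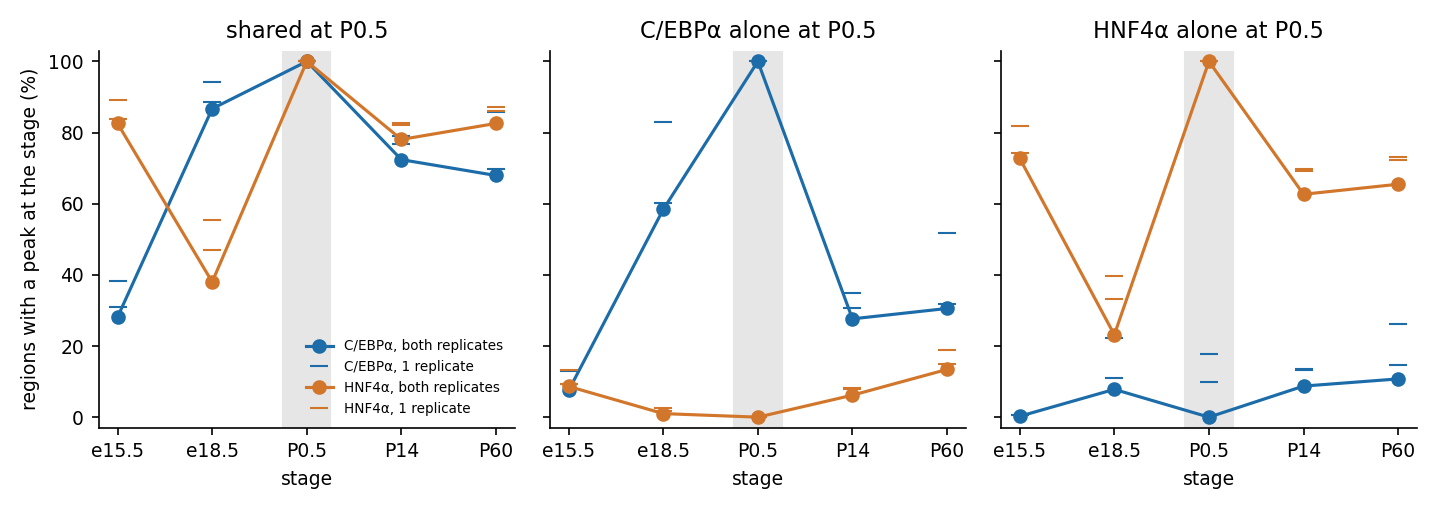
Percent of P0.5 regions (y) with a peak of C/EBPα (blue) or HNF4α (orange) at each stage (x), in 3 panels by P0.5 class; dots need a peak in both replicates, dashes are single lists, and grey marks P0.5, whose values the classes fix. In shared regions HNF4α is at 82.6% at e15.5 and 38.02% at e18.5, while C/EBPα is at 28.2% and 86.7%.

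The overlap measured within each stage differed across the series. HNF4α regions shared with C/EBPα made up 15.8% at e15.5, 31.9% at e18.5, 70.3% at P0.5, 57.9% at P14 and 55.8% at P60. The share of C/EBPα regions with HNF4α was 55.0%, 9.11%, 17.9%, 40.9% and 48.1%. The lengths of the lists move with these shares: C/EBPα had 10419, 65021, 94619, 34737 and 44217 regions, and HNF4α 35764, 18359, 21262, 23800 and 36322. Median HNF4α widths also differed, at 523, 493, 1009, 979 and 833 bp in order of stage. HNF4α at P0.5 is a single list, whereas the other entries keep only regions found in both replicates. The part of list length in the shares was not tested beyond the equal-length values at P0.5, and that of width was not tested across stages.

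Genes were assigned by any region within 5 kb of their start. Of 37583 genes, 5554 had a shared region, 1164 had separate regions of both factors, 11062 had C/EBPα alone, 922 had HNF4α alone and 18881 had none. Of these, 4301, 894, 6806, 616 and 5154 passed the filter on low RNA values. The classes differ in RNA level: their median WT values were 528, 454, 266, 252 and 70.7 normalized reads.

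Genes near shared regions were called lower in both knockouts more often than genes near regions of 1 factor. Calls are from limma with Benjamini-Hochberg adjusted p under 0.05 over 17771 genes. In the C/EBPα knockout the background of genes called lower was 2.86% (509 genes), and in the HNF4α knockout it was 3.17% (563 genes). Calls in either direction made up 3.75% and 4.7%. Of the genes with a shared region, 324 (7.53%) were called lower without C/EBPα and 367 (8.53%) without HNF4α. For genes with separate regions of both factors the counts were 22 (2.46%) and 33 (3.69%). For C/EBPα alone genes they were 111 (1.63%) and 102 (1.499%), and for HNF4α alone genes 4 (0.649%) and 12 (1.95%). For genes with no region they were 48 (0.931%) and 49 (0.951%). Median log2 changes in the C/EBPα knockout were -0.17, -0.02, 0.06, 0.12 and 0.15 in the order shared, separate, C/EBPα alone, HNF4α alone and none, beside 0.03 over all genes. In the HNF4α knockout they were -0.30, -0.05, 0.05, -0.09 and 0.27, beside 0.02. These medians are read relative to that of all genes, which depends on how the libraries are scaled.

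The count of HNF4α calls rests on few libraries. Without HNF4α knockout library 1, 3.28% of genes with a shared region were called lower, beside 1.22% of all genes. Without WT library 1 the value was 4.47%, beside 1.63% of all genes. In the C/EBPα knockout the value was 3.98% without WT library 1, beside 1.45% of all genes. HNF4α knockout library 1 also stands apart by its skeletal muscle RNA: the summed value of 7 muscle markers was 576403 there, 231 in the other HNF4α knockout library and between 67 and 1111 in the remaining libraries. The libraries also differ in total after the deposited scaling, with 20.4 M to 22.5 M normalized reads in WT, 13.4 M to 16.4 M in the C/EBPα knockout and 20.0 M and 26.0 M in the HNF4α knockout (M is a factor of 1e6). When every library was rescaled to an equal total, the median gene moved from 0.03 to 0.53 on the log2 scale in the C/EBPα knockout, and genes called lower were 40.6% of its calls (324 lower, 474 higher) in place of 76.4%. Of the genes with a shared region, the share called lower was then 4.91%, beside 1.82% of all genes.

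The summed hepatocyte marker values of both knockouts lay below those of WT. The summed value of 8 hepatocyte markers ranged from 2699929 to 3969925 in WT, 246955 to 952908 in the C/EBPα knockout and 1209006 to 1654440 in the HNF4α knockout, and 1 of the 8 was called lower in the C/EBPα knockout and 0 in the HNF4α knockout. The 7 bile duct markers summed to between 1241 and 2622 in WT, 8681 and 10715 in the C/EBPα knockout and 2229 and 2539 in the HNF4α knockout, with 4 of 7 called higher in the C/EBPα knockout. The 7 erythroid markers summed to between 643741 and 2126026 in WT and between 2380619 and 3766957 in the HNF4α knockout, with 0 called. Macrophage, stellate and fibroblast, and neutrophil markers were also higher in sum in both HNF4α knockout libraries than in any WT library. Macrophage sums were 19500 and 21279 against 8345 to 10351, with 1 marker called higher. Stellate and fibroblast sums were 74112 and 24544 against 7771 to 12601, with 1 called higher, and neutrophil sums were 80087 and 61509 against 23534 to 32027, with 0 called. In these bulk samples fewer cells of a type and less RNA per cell cannot be told apart, and the part of cell composition in the gene calls was not tested.

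The shares were also set side by side within 4 groups of tested genes by mean WT value, which narrow the differences in level between classes but do not remove them. In the highest group, which runs from 695 to 2449570 normalized reads, 235 of 1797 shared genes (13.1%) were called lower in the C/EBPα knockout and 240 (13.4%) in the HNF4α knockout. In the same group the shares were 4.35% and 3.67% of 1608 C/EBPα alone genes and 3.13% and 1.74% of 575 genes with no region. In the second lowest group, from 44.7 to 244.7 normalized reads, they were 2.96% and 6.05% of shared genes and 0.787% and 0.675% of C/EBPα alone genes. The lowest group had few lower calls in any class, 14 and 13 of 4443 genes.

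**Figure D4:**
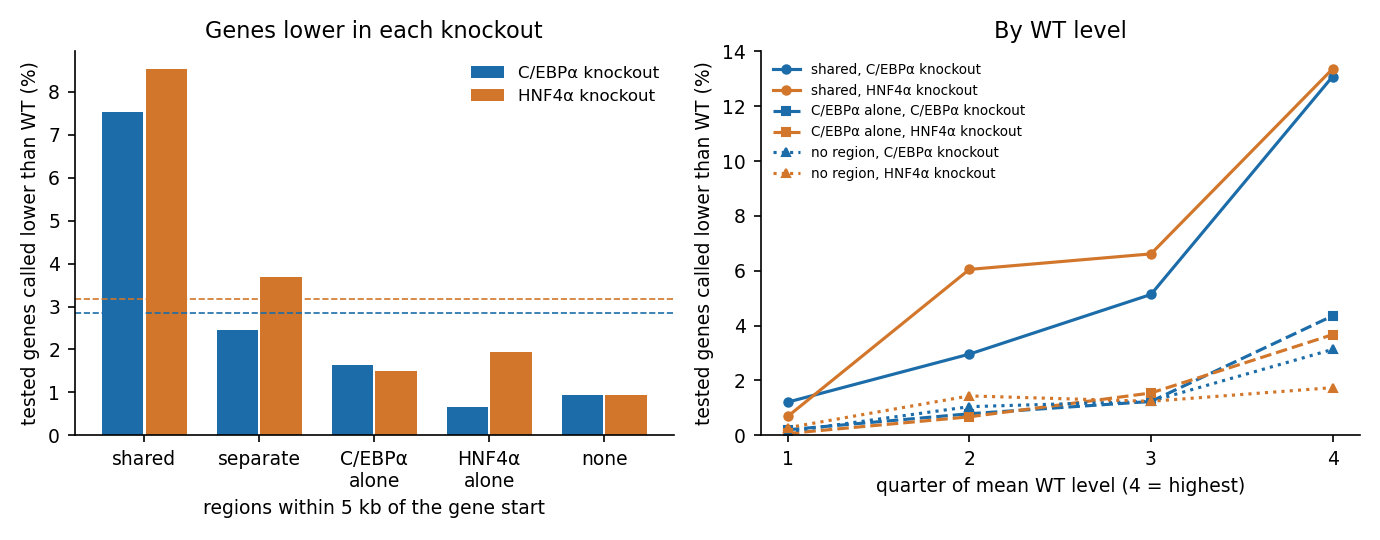
Left, percent of tested genes called lower than WT (y) by class of region within 5 kb of the gene start (x), in the C/EBPα knockout (blue) and the HNF4α knockout (orange); dashed lines are the backgrounds of 2.86% and 3.17%. Right, the same percent in 4 groups by mean WT level for shared, C/EBPα alone and no-region genes; shared genes reach 13.1% and 13.4% in the highest group.

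The calls were more frequent with more shared regions and with binding at more stages. With 1, 2 and at least 3 shared regions, 6.12%, 13.4% and 18.9% of genes were called lower in the C/EBPα knockout and 7.19%, 14.4% and 17.1% in the HNF4α knockout, at median WT values of 482, 757 and 1358. For genes near shared regions with both factors at 0, 1, 2, 3 and all 4 of the other stages, the C/EBPα knockout shares were 2.92%, 5.55%, 8.72%, 13.5% and 16.9%. The HNF4α knockout shares were 4.22%, 6.54%, 10.4%, 13.2% and 17.6%, and the median WT value went from 477 with none to 809 with all 4. A gene near several regions is counted once in each of these stage groups. Genes whose start lies inside a shared region were called lower in 8.25% and 9.75% of 2266 cases, against 6.73% and 7.17% of 2035 genes with a shared region elsewhere in the window.

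Seen from the calls, 63.7% of the 509 genes lower in the C/EBPα knockout and 65.2% of the 563 genes lower in the HNF4α knockout had a shared region. Of all 17771 genes tested, 4301 had one, and 23.1% of the genes that were not called had one in each of these comparisons. Of the 261 genes lower in both, 184 (70.5%) had one. The knockouts were compared with the same WT libraries, so calls in both are not independent. Genes called higher, a background of 0.883% in the C/EBPα knockout and 1.54% in the HNF4α knockout, were 0.465% and 0.628% of the shared genes. HNF4α alone genes were called higher in the C/EBPα knockout in 14 of 616 cases (2.27%). In the lowest of the groups by WT value, up to 44.7 normalized reads, it was 10.5% of 124 such genes, beside 2.23% of all genes. From the second lowest to the highest group it was 0.559%, 0% and 0%. The knockouts were also compared directly: the C/EBPα knockout was lower in 332 genes (1.87%) and higher in 287 (1.61%), 3.48% in all. Of the shared genes, 94 (2.19%) were lower and 125 (2.91%) higher. Of the C/EBPα alone genes 120 (1.76%) were lower and 76 (1.12%) higher, and of the HNF4α alone genes 8 (1.30%) were lower and 17 (2.76%) higher. Without HNF4α knockout library 1 this comparison called 88 genes in place of 619, with 36 lower and 52 higher, and at equal library totals it called 169 lower and 631 higher.

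The genes of the factors themselves hold regions of both. Cebpa (mm9 chr7:35904312-35906945) had 2 shared regions, one over its start and one centred at -2464 bp from it, and C/EBPα alone regions at 2116 and 4346 bp downstream. Its RNA was 9999, 9594 and 5511 normalized reads in WT, 322, 419 and 998 in the C/EBPα knockout and 3886 and 4500 in the HNF4α knockout. The C/EBPα knockout values lie below all others, with a log2 change of -3.98 ± 0.44 (SE; adjusted p = 0.000413), and the HNF4α knockout change was -0.95 ± 0.49 (adjusted p = 0.299). Hnf4a (chr2:163332544-163398646) had C/EBPα alone regions within 5 kb of its annotated start, 3 shared regions inside the gene at 32428, 34499 and 49133 bp from that start, and 1 just past its end. Its RNA was 9098, 4948 and 6718 in WT, 1238 and 2444 in the HNF4α knockout and 2492, 2530 and 4510 in the C/EBPα knockout. Its change was -1.95 ± 0.45 in the HNF4α knockout (adjusted p = 0.0330), a call lost without HNF4α knockout library 1, WT library 1 or WT library 3. In the C/EBPα knockout it was -1.14 ± 0.40 (adjusted p = 0.188). The deposited values are totals per gene and do not separate the exons that were deleted, so they check the deletion only in part.

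Among genes with a shared region, several hepatocyte genes were far lower in both knockouts than in WT. Slc10a1, the sodium-dependent bile acid uptake transporter, had a shared region over its start (mm9 chr12:82068662-82069745). Its values were 4981, 5286 and 7541 in WT, 48, 44 and 48 in the C/EBPα knockout and 673 and 323 in the HNF4α knockout. The groups do not overlap, and the log2 changes were -6.94 ± 0.35 (adjusted p = 5.00e-06) and -3.64 ± 0.39 (adjusted p = 0.000614). The C/EBPα minus HNF4α knockout difference was -3.29 ± 0.39 (adjusted p = 0.00220). Cyp2e1, an ethanol-oxidising cytochrome P450, had a shared region over its start (chr7:147948965-147950081) and values of 12492, 10077 and 5381 in WT, 110, 306 and 268 without C/EBPα and 117 and 92 without HNF4α. Its changes were -5.39 ± 0.45 (adjusted p = 7.07e-05) and -6.39 ± 0.50 (adjusted p = 0.000171), and the knockouts differed by 1.00 ± 0.50 (adjusted p = 0.313). Nr1h4, the bile acid receptor FXR, had its shared region 1262 bp downstream of the start. Its values were 1343, 1285 and 895 in WT, 133, 100 and 140 without C/EBPα and 93 and 166 without HNF4α, and its changes were -3.22 ± 0.36 and -3.21 ± 0.40 (adjusted p = 0.000476 and 0.00124).

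Other shared genes moved mainly with 1 factor. Cps1, the entry enzyme of the urea cycle, had C/EBPα alone over its start and a shared region centred 5137 bp into the gene. Its values were 42271, 35402 and 52397 in WT, 185, 87 and 625 without C/EBPα and 23796 and 22966 without HNF4α. The changes were -7.62 ± 0.59 (adjusted p = 4.54e-05) and -0.87 ± 0.66 (adjusted p = 0.474), and the knockouts differed by -6.75 ± 0.66 (adjusted p = 0.000912). Pon1, the plasma paraoxonase, had 1995, 2055 and 2664 in WT, 30, 3 and 22 without C/EBPα and 830 and 1648 without HNF4α, and the knockouts differed by -6.37 ± 0.74 (adjusted p = 0.00182). Nr1i2, the xenobiotic receptor PXR, had a single region, shared and over its start (chr16:38294377-38295597). It had 1372, 872 and 1048 in WT, 465, 304 and 750 without C/EBPα and 55 and 97 without HNF4α. Its change was -3.86 ± 0.45 in the HNF4α knockout (adjusted p = 0.000871) and -1.19 ± 0.41 in the C/EBPα knockout (adjusted p = 0.172). The knockouts differed by 2.68 ± 0.45 (adjusted p = 0.0103), a call lost without HNF4α knockout library 1.

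The largest falls of shared genes in the C/EBPα knockout were those of Cyp3a25 (-8.27 ± 0.82), a P450 of the steroid- and drug-oxidising 3A family, Serpina3k (-7.94 ± 0.91), a plasma serpin, and Hfe2 (-7.67 ± 1.02), hemojuvelin. In the HNF4α knockout they were Serpina3k (-8.06 ± 1.02), Cyp4a10 (-7.80 ± 0.86), a fatty acid hydroxylase, and Inhbe (-7.53 ± 0.90), an activin subunit. Apart from those of Serpina3k, these changes are near the floor of the scale. Cyp3a25 had 5, 0 and 11 normalized reads without C/EBPα and 7 and 19 without HNF4α, beside 1616, 1188 and 1093 in WT. Serpina3k had 94, 31 and 219 without C/EBPα and 104 and 60 without HNF4α, but 53144, 44680 and 4142 in WT. The WT values of Inhbe also spread widely, at 1822, 739 and 246. Serpina3k and the P450 genes have close paralogs, and how reads were split among these was not given in the sources used here.

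Genes with regions of C/EBPα alone included some lower in both knockouts and some lower in 1. Saa4, a constitutive serum amyloid, had a C/EBPα alone region over its start (chr7:53987817-53988323). Its values were 862, 803 and 798 in WT, 1, 5 and 6 without C/EBPα and 155 and 186 without HNF4α. Its log2 change was -7.55 ± 0.53 without C/EBPα (adjusted p = 2.75e-05) and -2.27 ± 0.59 without HNF4α (adjusted p = 0.0546), and the knockouts differed by -5.29 ± 0.59 (adjusted p = 0.00176). Apcs, the pentraxin serum amyloid P, had 12520, 15618 and 17721 in WT, 1256, 1580 and 1613 without C/EBPα and 2124 and 1918 without HNF4α. It fell in both (log2 -3.36 ± 0.31 and -2.91 ± 0.34; adjusted p = 0.000127 and 0.000885), with no HNF4α peak within 5 kb of its start at P0.5. Apob had C/EBPα alone over its start (mm9 chr12:7984128-7984665), the promoter printed above. It had 47448, 22214 and 105213 in WT, 28066, 7325 and 13792 without C/EBPα and 1347 and 1768 without HNF4α. Its change was -1.76 ± 0.63 without C/EBPα (adjusted p = 0.194), where the groups overlap, and -4.96 ± 0.70 without HNF4α (adjusted p = 0.00242). Cdh16, a cadherin known from kidney epithelium, rose in the C/EBPα knockout from 0, 0 and 5 to 349, 178 and 262 (7.13 ± 0.81; adjusted p = 0.000489).

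Genes with regions of HNF4α alone were a small class, 616 of the 17771 tested. In the C/EBPα knockout they made up 0.786% of genes called lower, 8.92% of those called higher and 3.50% of those not called. In the HNF4α knockout the shares were 2.13%, 2.20% and 3.53%. The HNF4α alone genes called higher in the C/EBPα knockout lay mostly in the lowest group by WT value. Mbl2, a mannose-binding lectin of the complement system, had an HNF4α alone region centred 3244 bp upstream of its start (chr19:30303561-30304787). Its values were 878, 1640 and 1362 in WT, 113, 132 and 225 without C/EBPα and 16 and 14 without HNF4α. It fell in both knockouts (log2 -3.05 ± 0.41 and -6.29 ± 0.45; adjusted p = 0.00149 and 0.000171), and was higher without C/EBPα than without HNF4α by 3.24 ± 0.45 (adjusted p = 0.00375). Gipc2, a PDZ-domain protein, had an HNF4α alone region over its start (chr3:151827910-151829440). It had 146, 206 and 218 in WT, 248, 332 and 479 without C/EBPα and 3 and 17 without HNF4α. Its log2 change was -4.47 ± 0.63 without HNF4α (adjusted p = 0.00230) and 0.86 ± 0.56 without C/EBPα (adjusted p = 0.572), and the knockouts differed by 5.33 ± 0.63 (adjusted p = 0.00209). Bmp7, a bone morphogenetic protein, rose from 21, 13 and 21 in WT to 227, 392 and 123 without C/EBPα and 315 and 360 without HNF4α (3.56 ± 0.49 and 4.16 ± 0.55; adjusted p = 0.00188 and 0.00156).

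**Figure D5:**
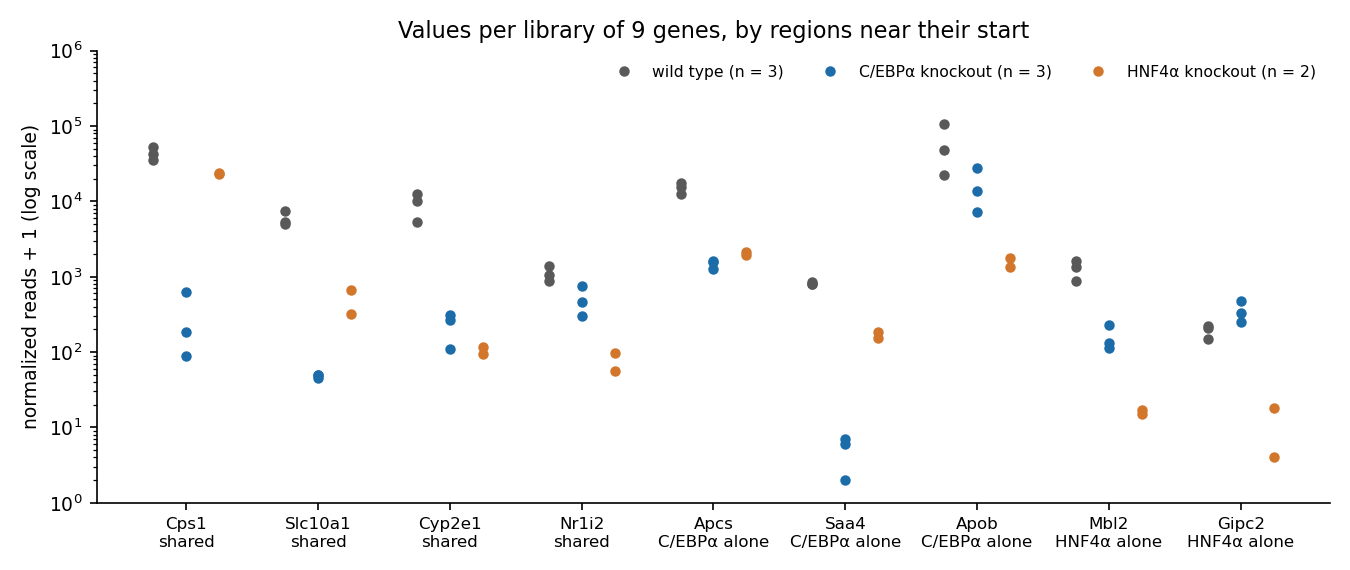
Deposited normalized reads plus 1 (y, log scale) of 9 genes (x) in each library, with the class of region within 5 kb of the gene start; grey, WT; blue, C/EBPα knockout; orange, HNF4α knockout. Cps1 and Saa4 are lowest without C/EBPα, and Nr1i2, Apob, Mbl2 and Gipc2 are lowest without HNF4α.

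By pathway, the genes of blood coagulation and fatty acid oxidation were those most often near a shared region. Over all 37583 genes, 14.8% had one. Most list members passed the RNA filter, and of the 17771 genes that did, 4301 had one. Of the 4443 genes in the highest group by WT value, 1797 had one. The backgrounds of genes called lower were 2.86% in the C/EBPα knockout and 3.17% in the HNF4α knockout. Of 21 coagulation genes, 20 had one, and the remaining gene, Serpinf2, had separate regions of both factors. In the C/EBPα knockout 12 of 21 were called lower, and in the HNF4α knockout 8. With 20 of 21 genes near a shared region, these calls cannot be compared between classes. Median log2 changes were -2.55 and -1.49. Fibrinogen γ (Fgg), with 3 shared regions, had 87161, 96127 and 117609 in WT, 7454, 7236 and 8918 without C/EBPα and 36093 and 43033 without HNF4α. Its log2 change was -3.67 ± 0.46 without C/EBPα (adjusted p = 0.000986) and -1.34 ± 0.51 without HNF4α (adjusted p = 0.169). Of 21 genes of fatty acid oxidation and ketogenesis, 19 had a shared region, 20 were tested, 4 were lower in the C/EBPα knockout and 9 in the HNF4α knockout, with medians of -1.07 and -1.72. Their regulator Ppara had separate regions of both.

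Detoxifying, bile acid and amino acid genes combined frequent sharing with frequent calls in both knockouts, though the calls were not confined to the genes with a shared region. Of 35 cytochrome P450 and xenobiotic genes, 27 had a shared region, 34 were tested, 23 were lower without C/EBPα and 27 without HNF4α, with medians of -3.35 and -3.54. Of those lower, 18 and 22 were among the 26 tested genes with a shared region. Of 20 bile acid genes, 13 had a shared region, and 14 and 15 were lower (medians -3.38 and -3.25). Only 8 and 11 of those lower were among the 13 with a shared region. The canalicular bile salt pump Abcb11, with a shared region, had 6308, 5507 and 3860 in WT, 482, 556 and 741 without C/EBPα and 646 and 417 without HNF4α. Hsd3b7, a bile acid synthesis enzyme with no region within 5 kb, had 4623, 4895 and 3588 in WT, 540, 238 and 943 without C/EBPα and 838 and 848 without HNF4α, and its change without C/EBPα was -3.13 ± 0.44 (adjusted p = 0.00212). Of 26 urea cycle and amino acid genes, 20 had a shared region, and 18 and 14 were lower (medians -2.93 and -2.10), with 1 higher in the C/EBPα knockout. Among the 20 with a shared region, 14 and 10 were lower. Arginase (Arg1), with 2 shared regions, had 14933, 13596 and 18277 in WT, 544, 714 and 1021 without C/EBPα and 6397 and 5709 without HNF4α.

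The other liver lists varied in their share of shared genes and in the knockout with more lower calls. Of 25 acute phase and carrier proteins, 20 had a shared region and 22 were tested, with 8 lower and 1 higher without C/EBPα and 3 lower and 2 higher without HNF4α. Albumin (Alb), with 1 shared region, had 2758860, 1491170 and 3098690 in WT, 670004, 127285 and 559934 without C/EBPα and 430946 and 863323 without HNF4α. Its groups do not overlap, but neither change passed the test (adjusted p = 0.485 and 0.543). Complement had 12 of 19 genes with a shared region, with 7 lower without C/EBPα and 12 without HNF4α. Apolipoprotein genes had 12 of 20, with 8 and 3 lower, and glucose and glycogen genes 10 of 18, with 11 and 6 lower. Lipid synthesis had 10 of 21 shared and 9 of 21 with C/EBPα alone, with 4 lower in each knockout. Median changes without C/EBPα ran from -2.53 for acute phase proteins to -0.31 for lipid synthesis.

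Of 30 liver transcription factor genes, 21 had a shared region, 3 separate regions of both, 5 C/EBPα alone and 1 none. In the C/EBPα knockout 4 were lower and 1 higher, and in the HNF4α knockout 7 were lower. The higher gene was Gata6, a zinc finger factor, with 184, 104 and 218 in WT, 493, 522 and 679 without C/EBPα and 445 and 419 without HNF4α (1.79 ± 0.36 without C/EBPα; adjusted p = 0.0181, lost without C/EBPα knockout library 1, WT library 1 or WT library 2). Foxa1, a forkhead factor with C/EBPα alone, had 124, 97 and 82 in WT, 10, 2 and 22 without C/EBPα and 279 and 194 without HNF4α. Its change without C/EBPα was -3.46 ± 0.69 (adjusted p = 0.0177), lost without WT library 1 or 2.

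The lists of general cell functions had lower shares of genes with a shared region than the liver lists. The shares were 16% for cell cycle and 40% for ribosomal protein genes, beside 14.8% of all genes. All members of both lists were tested, and 4301 of the 17771 tested genes had a shared region. In the highest group by WT value 1797 of 4443 had one, so the difference from 14.8% is not adjusted for RNA level. Of 25 cell cycle genes, 4 had a shared region, 11 had C/EBPα alone and 6 had none, with 0 lower and 4 higher in the C/EBPα knockout and 0 called in the HNF4α knockout. Of 20 ribosomal protein genes, 8 had a shared region and 11 C/EBPα alone, and 0 were called in either knockout. Their medians without C/EBPα were 0.75 and 0.31. All pathway lists were assembled with earlier results of these data known, so their counts describe the lists and are no independent support for any of them.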

How the data were processed

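ChIP-seq peak lists of C/EBPα and HNF4α and RNA values from mouse liver were analysed. The submitters' processing notes name BWA, TopHat2, Cufflinks, bedtools, DESeq, bcl2fastq, FastQC and MACS 1.4, and build mm9, with no role for each. The deposited peak lists give positions with a score of 0 throughout, so no peak height was used. The deposited RNA values are a score per gene, which the authors name DESeq-normalized reads, rounded to whole numbers; read depth before this scaling is not known from them. The deposited table also gives the share of G and C bases of each gene, which was not used. How the authors set peak thresholds is not given in the sources used here.

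C/EBPα peaks of both replicates were merged by any overlap and kept if both were present. Gene starts were taken from the deposited table. The filter kept 17771 of 37583 genes (10 normalized reads or more, in 2 libraries or more), which were tested on log2(value + 1) with limma 3.58.1 (trend) in R 4.3.3, all 8 libraries in 1 fit, 2-sided, Benjamini-Hochberg adjusted p under 0.05. Changes are ± standard error. The log2 scale understates changes of low genes. In simulated data the fit called 0% of 2-fold changes in either knockout. Of 4-fold changes it called 37% in the C/EBPα knockout and 21% in the HNF4α knockout, so genes that were not called may still differ. The share of false calls was above the threshold at several fold sizes.

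The genes that may be named are Cebpa and Hnf4a, every liver transcription factor of the list, the 8 shared genes of largest non-overlapping call in each knockout, the 6 such genes of each single-factor class in the knockout of that factor, and, per pathway list, the 2 shared members and 1 member of each other class of highest WT value. Which of these are described per library was chosen after their values were seen. The members and lists were chosen with earlier results of these data known.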

Additional observations from a re-analysis of the deposited data

How the results depend on the processing

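The shares of overlap depended on how overlap was defined. HNF4α peaks shared with C/EBPα were 60.5% when the HNF4α centre had to lie inside the C/EBPα region, 68.3% with an overlap of 50% of the shorter interval, 78.4% with a C/EBPα peak of either replicate, 66.1% with intervals at least as wide as the median of their list, and 73.1% to 75.4% without 1 C/EBPα replicate. C/EBPα regions shared with HNF4α were 13.6%, 16.6%, 15.1%, 16.6% and 15.9% to 17.1% in the same order. The 2 alternatives added after seeing the data were 200 bp around each centre (55.1% and 12.4%) and as many C/EBPα regions as HNF4α peaks (36.4% and 37.7%). Genes with a shared region numbered 3338 within 1 kb of the start.

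Leaving out 1 RNA library gave 311 to 804 called genes in the C/EBPα knockout (666 with all), 238 to 1372 in the HNF4α knockout (836) and 88 to 855 between the knockouts (619). Without a filter on low values the last was 403. The libraries whose omission moved these counts by over 1.5 times were, for the C/EBPα knockout, its library 1 (406) and WT libraries 1 (311) and 2 (402). For the HNF4α knockout they were its libraries 1 (238) and 2 (530), WT libraries 1 (372) and 3 (504) and C/EBPα knockout library 3 (1372). Between the knockouts they were C/EBPα knockout library 1 (256), HNF4α knockout libraries 1 (88) and 2 (384) and WT library 1 (378). The replicate block, with the library number as a term, gave 486 calls in the HNF4α knockout, 288 between the knockouts and 509 in the C/EBPα knockout. Libraries with the same number had correlations from -0.23 to 0.19 in their deviations from the group means. With so few libraries in a group these deviations depend on each other. The correlations therefore cannot show whether libraries with the same number belong together. Genes with a shared region called lower in the C/EBPα knockout were 6.66% within 10 kb, 4.91% at equal library totals, 5.95% with the replicate block and 3.98% to 10.1% without 1 library. In the HNF4α knockout they were 9.41% within 1 kb, 7.41% within 10 kb, 5.49% with the replicate block and 3.28% to 11.8% without 1 library. At equal library totals, the lower share of calls between the knockouts was 21.1% in place of 53.6%. The cause of these shifts was not tested. In 14 of 14 fits for each knockout, genes with a shared region were called lower more often than other genes. The excess was 5.35 to 7.38 times in the C/EBPα knockout and 5.28 to 8.68 times in the HNF4α knockout. These fits reuse the same libraries and gene classes, so they are not separate support. Genes with a shared region also had the highest median WT value of the classes, for which the excess is not adjusted. The balance of calls did turn in some fits: at equal library totals to 324 lower and 474 higher in the C/EBPα knockout and to 169 lower and 631 higher between the knockouts, which had 332 lower and 287 higher with the deposited scaling. Between the knockouts it was also 36 lower and 52 higher without HNF4α knockout library 1, 183 and 195 without WT library 1, and 237 and 242 without the trend.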

Other observations

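HNF4α peaks on the X chromosome overlapped C/EBPα less often than autosomal ones in the P0.5 lists. Of 350 HNF4α peaks on X, 161 (46.0%) were shared, against 70.8% of 20893 autosomal peaks, and the shares of the other chromosomes numbered 1 to 19 ran from 68.6% to 74.6%. With each C/EBPα replicate on its own the X shares were 48.9% and 51.7%, against 73.5% and 75.8%. The X peaks were somewhat narrower, with a median of 938 bp against 1010 bp. At e18.5 the X share was 5.09% of 1119 HNF4α regions against 33.6% of autosomal regions. It was 16.9% against 15.8% at e15.5, 55.0% against 58.0% at P14 and 44.1% against 56.0% at P60. Of the 189 HNF4α alone regions on X, 40.2%, 16.4%, 61.9% and 45.5% had HNF4α at e15.5, e18.5, P14 and P60, against 73.8%, 23.4%, 62.6% and 66.1% of autosomal ones. C/EBPα was at 5.29%, 4.76%, 28.0% and 10.6% of them at the same stages, against 0.0983%, 7.93%, 7.93% and 10.6%, so the difference was not in one direction across stages.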
